A study of Mus musculus with 12 samples.

Results

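The brush border of the small intestine carries membrane peptidases that finish protein digestion, and a transporter that takes up the resulting short peptides. The 9 genes described here are the aminopeptidase genes Anpep and Enpep, the genes Dpp4 and Ace, whose enzymes release dipeptides, the endopeptidase genes Mme, Mep1a and Mep1b, the enteropeptidase gene Tmprss15 and the peptide transporter gene Slc15a1. They were chosen by name, with earlier results of these data known. All 9 symbols had a row of their own among the 17175 genes of the deposited table. RNA-seq was done on mouse small intestine in 4 groups of 3 libraries: wild-type (WT) proximal, WT distal, Bmpr1a cKO proximal and Bmpr1a cKO distal. The Bmpr1a gene product is a receptor for BMPs, the bone morphogenetic proteins, and cKO denotes a conditional knockout. The stated aim of the series was to relate BMP signals in the epithelium to villus length along the intestine. The labels give the tissue and the genotype. They name no Cre driver, strain, age, sex or treatment, and nothing in them states that replicates are different animals. The p-values measure the spread of these libraries, which in the WT groups may be only technical.

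Dietary protein is first cut by pancreatic proteases, which depend on trypsin. Enteropeptidase, a serine protease of the duodenal brush border, switches on this cascade by cleaving trypsinogen. Brush border peptidases then trim the oligopeptides from either end or in the middle of the chain, and the proton-coupled transporter PepT1, the product of Slc15a1, carries di- and tripeptides into the enterocyte. Several of these enzymes also cleave signalling peptides: ACE and aminopeptidase A act on angiotensins, dipeptidyl peptidase 4 on incretins, and neprilysin, encoded by Mme, on small neuropeptides.

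The libraries held 11242024 to 17722756 reads recovered from the deposited values. The 9 genes together took 0.482 to 0.870% of the reads in WT proximal, 0.542 to 1.34% in WT distal, 1.23 to 1.46% in cKO proximal and 1.59 to 2.46% in cKO distal libraries. Bmpr1a itself did not differ detectably at whole-gene level: its scaled count was 772 to 1029 in WT and 833 to 1087 in cKO proximal libraries, and 438 to 631 in WT and 486 to 668 in cKO distal libraries (log2 fold changes of 0.0085 and 0.061, each with an SE of 0.19). The files do not show which part of the gene was deleted, so this value does not check the genotype labels. The segment labels were matched by the marker genes: the summed scaled count of 8 proximal genes was 81452 to 115595 in proximal and 5139 to 39196 in distal libraries. In the cKO libraries numbered 1, from both segments, all 4 Y-linked genes examined were at 0 reads, while the other 10 libraries held reads of all 4, so each cKO group held more than 1 animal. The share of mitochondrially encoded reads was 17.4 to 26.0% in WT proximal, 22.3 to 37.7% in WT distal, 9.75 to 14.8% in cKO proximal and 9.95 to 27.7% in cKO distal libraries. The labels name the small intestine without the layers taken. The summed scaled count of 6 smooth muscle genes was 38.4 to 498 and that of 6 endothelial genes 69.7 to 528, against 89958 to 257890 for 8 pan-epithelial genes. That of 6 fibroblast genes was 2930 to 19726 in WT proximal and 2023 to 23734 in WT distal libraries. In cKO the fibroblast sum was 1954 to 3305 in proximal and 5034 to 5428 in distal libraries. Among WT distal libraries it was lowest in library 3. Its part in the members' values was not tested. These are bulk samples, so fewer cells of a type and less RNA per cell cannot be told apart in any value below.

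In GRCm38 (mm10) with GENCODE M21 annotation, Anpep lies on chromosome 7 from 79821803 to 79861059 (minus strand), Enpep on chromosome 3 from 129269175 to 129332720 (minus strand) and Dpp4 on chromosome 2 from 62330073 to 62412231 (minus strand). Ace lies on chromosome 11 from 105967945 to 105989964 (plus strand), Mme on chromosome 3 from 63241537 to 63386030 (plus strand) and Mep1a on chromosome 17 from 43474324 to 43502812 (minus strand). Mep1b lies on chromosome 18 from 21061923 to 21100199 (plus strand). Tmprss15 lies on chromosome 16 from 78953008 to 79091097 (minus strand) and Slc15a1 on chromosome 14 from 121459621 to 121505252 (minus strand). All 9 are annotated as protein-coding. An annotated antisense gene overlaps exons of Ace (Gm11651) and another overlaps exons of Dpp4 (Gm13561). Whether the counting used strand is not given in the sources used here, so reads of these pairs cannot be told apart.

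Values are scaled read counts, (read count + 1) divided by a size factor of the library, listed for libraries 1, 2 and 3 of each group in that order. Aminopeptidase N, encoded by Anpep, removes neutral residues from the amino end of peptides. Its scaled count was 56057, 36687 and 38276 in WT proximal, 42284, 47749 and 113304 in WT distal, 116930, 110559 and 100071 in cKO proximal, and 223207, 107382 and 147800 in cKO distal libraries. The proximal groups did not overlap, with cKO higher, while in the distal segment WT library 3 lay above cKO library 2. Aminopeptidase A, encoded by Enpep, removes acidic residues. Its scaled count was 10826, 6754 and 11941 in WT proximal, 7755, 9520 and 24927 in WT distal, 22330, 18862 and 18970 in cKO proximal, and 66131, 33342 and 37701 in cKO distal libraries. For Enpep the cKO libraries lay above the WT libraries in each segment, and the cKO distal group was apart from the cKO proximal group. In the order of group means (WT proximal, WT distal, cKO proximal, cKO distal), shared by both aminopeptidase genes, the only neighbours that did not overlap were the cKO groups of Enpep.

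Dpp4 encodes an exopeptidase that releases dipeptides after proline or alanine. Its scaled count was 9132, 3675 and 5072 in WT proximal, 4304, 4895 and 9677 in WT distal, 6788, 5768 and 5723 in cKO proximal, and 15316, 12275 and 8486 in cKO distal libraries. In the order of means (WT proximal, cKO proximal, WT distal, cKO distal) every pair of neighbouring groups overlapped. The cKO distal libraries were all above the cKO proximal ones, which are not neighbours in that order. Ace encodes angiotensin-converting enzyme, which removes dipeptides from the carboxyl end. Its scaled count was 25727, 9475 and 14721 in WT proximal, 2674, 3566 and 14772 in WT distal, 49467, 34123 and 32423 in cKO proximal, and 52002, 20449 and 35897 in cKO distal libraries. Within each segment all cKO libraries were above all WT libraries. WT distal library 3 stood at 14772, far above the other WT distal libraries and inside the WT proximal range.

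Mme encodes neprilysin, an endopeptidase that cuts short peptides. Its scaled count was 19548, 9358 and 15298 in WT proximal, 743, 1566 and 3608 in WT distal, 17755, 18383 and 15189 in cKO proximal, and 7091, 4831 and 5416 in cKO distal libraries. From lowest to highest the groups ran WT distal, cKO distal, WT proximal, cKO proximal, and only the proximal pair overlapped. Mep1a and Mep1b encode the alpha and beta subunits of meprin, a metalloprotease of the astacin family. The scaled count of Mep1a was 966, 309 and 698 in WT proximal, 6153, 5250 and 12184 in WT distal, 2306, 1868 and 1776 in cKO proximal, and 22964, 14937 and 15457 in cKO distal libraries. No neighbouring groups of Mep1a overlapped: the order was WT proximal, cKO proximal, WT distal, cKO distal. The scaled count of Mep1b was 14485, 7407 and 9333 in WT proximal, 7804, 7250 and 16632 in WT distal, 20641, 20327 and 18061 in cKO proximal, and 60100, 31668 and 27917 in cKO distal libraries. For Mep1b both WT groups overlapped at the bottom of the order, followed by cKO proximal and then cKO distal, each apart from the group before it.

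Tmprss15 was present in the proximal segment and near 0 in the distal segment of either genotype. Its scaled count was 5805, 3276 and 4492 in WT proximal and 3128, 3791 and 4042 in cKO proximal libraries. In the distal segment the recovered reads were 0, 25 and 0 in WT and 4, 10 and 2 in cKO libraries. A count of 0 allows up to 3 reads. Divided by the size factor, without the added 1, 3 reads come to 3.65 in WT distal library 1 and 3.16 in library 3. The 25 reads came from WT distal library 2, in which the summed scaled count of 7 pancreatic acinar genes was 1031, against 68.2 and 84.3 in WT distal libraries 1 and 3. Whether these are connected was not tested. Slc15a1 had a scaled count of 7392, 3379 and 4525 in WT proximal, 2437, 3239 and 9046 in WT distal, 6030, 5027 and 5327 in cKO proximal, and 14811, 8546 and 11361 in cKO distal libraries. The cKO distal libraries of Slc15a1 were all above the cKO proximal ones but overlapped WT distal library 3, and the other 3 groups overlapped.

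**Figure D1:**
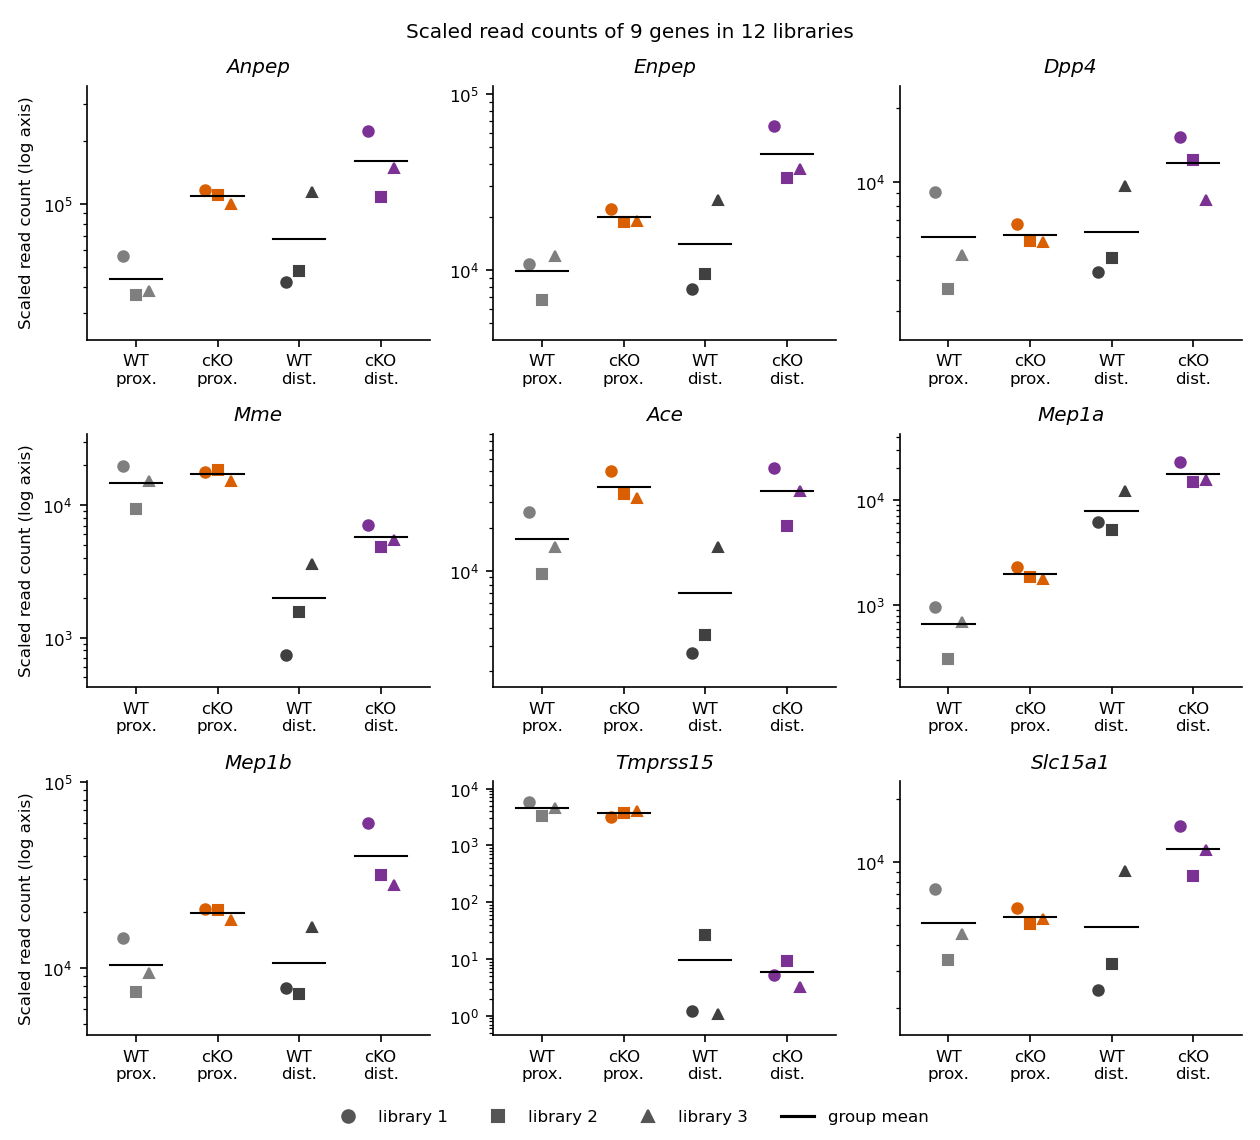
Scaled read count of each of the 9 genes on a log axis, with 1 point per library (the marker shape gives the library number) and a bar at the mean of each group of 3. Mep1a was higher in distal libraries, Mme and Tmprss15 lower, and WT distal library 3 was the highest of its group for every gene except Tmprss15.

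The libraries of a group were ordered alike across the genes. WT proximal library 2 was the lowest of its group for 9 of 9 genes and library 1 the highest for 8 of 9. WT distal library 3 and cKO distal library 1 were each the highest of their group for 8 of 9 genes, with Tmprss15 the exception in both. The geometric mean of 8 pan-epithelial genes was 12614, 8638 and 9751 in WT proximal, 8500, 7360 and 12957 in WT distal, 13400, 13296 and 12520 in cKO proximal, and 21836, 15322 and 14669 in cKO distal libraries. In each of the 4 groups it was highest in the library in which most of the members were highest, cKO proximal library 1 included (7 of 9). Within the proximal groups it was lowest in WT library 2 and cKO library 3, in which 9 of 9 and 6 of 9 members were lowest. Within the distal groups it was lowest in WT library 2 and cKO library 3. There 6 of 9 members were lowest in WT distal library 1 and 6 of 9 in cKO distal library 2. The part of the pan-epithelial level in the spread of the members was not tested.

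Per kb of annotated exon, Anpep had the highest level of the 9 genes in every library. Its level per kb was 10562 ± 2601 (SD, n = 3) in WT proximal, 16392 ± 9557 in WT distal, 26406 ± 2059 in cKO proximal and 38564 ± 14217 in cKO distal libraries. Anpep made up 44.2 ± 4.74% of the summed level per kb in WT proximal, 56.3 ± 0.977% in WT distal, 52.4 ± 1.32% in cKO proximal and 48.0 ± 3.02% in cKO distal libraries. Mep1b held the second largest mean share in all 4 groups, from 14.3 ± 1.70% in WT distal to 18.8 ± 3.12% in cKO distal libraries. Ace took 12.5 ± 2.46% in WT proximal and 14.4 ± 2.16% in cKO proximal libraries, against 3.93 ± 1.56% in WT distal and 8.38 ± 1.52% in cKO distal libraries. Mme took 5.21 ± 0.683% in WT proximal and 0.554 ± 0.178% in WT distal libraries, and Mep1a stood at 0.753 ± 0.220% and 8.15 ± 1.35% in the same groups. The lengths are unions of all annotated exons, so a gene with long or little-used exons, such as Mme at 11.542 kb, has a low value per kb.

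**Figure D2:**
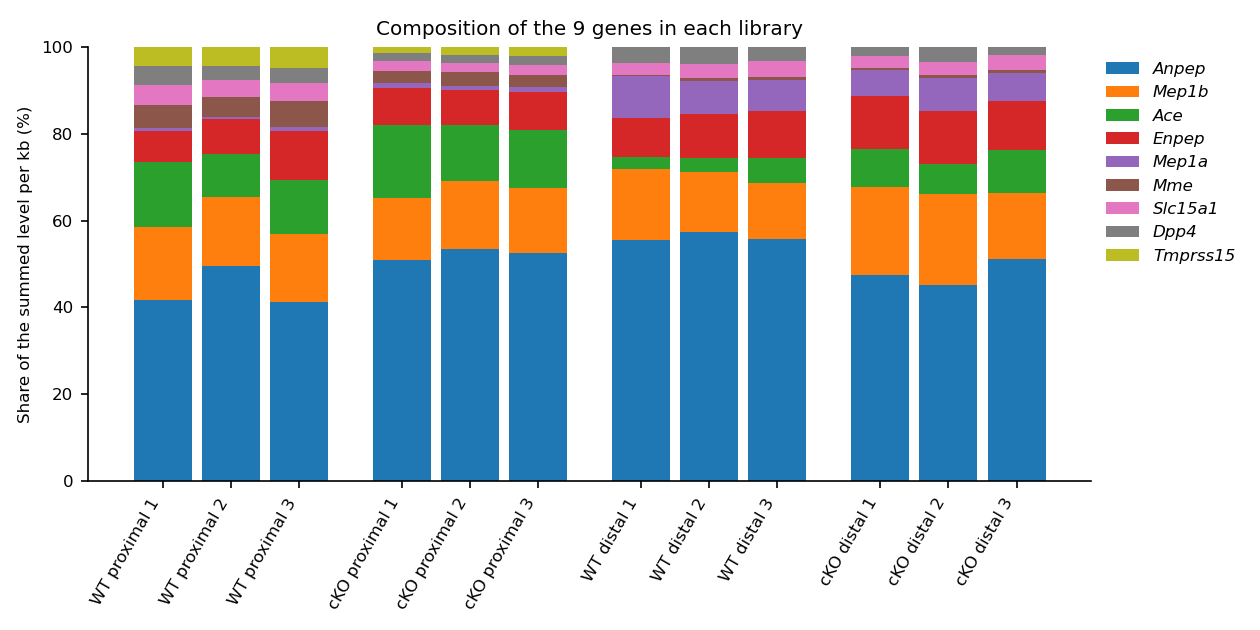
Share of each gene in the summed level per kb of the 9 genes (percent), 1 stacked bar per library. The Tmprss15 share is visible in the 6 proximal libraries only, and the Mep1a share is larger in the 6 distal libraries.

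The segments were first compared within WT mice, where 3 of the 9 genes passed the test and the other 6 did not. Mep1a, the meprin alpha subunit gene, was 12.3-fold higher in distal libraries, a log2 fold change of 3.63 with an SE of 0.38 (limma adjusted p = 1.69e-05). Mme was 8.73-fold lower, a log2 fold change of -3.13 with an SE of 0.43 (limma adjusted p = 0.0002). Tmprss15 was lower by 9.78 on the log2 scale with an SE of 0.73 (limma adjusted p = 6.99e-07), a size that depends on the constant of 1 added to each value: with 8 it was 8.27. All 3 had WT groups that did not overlap. Ace had a log2 fold change of -1.56 with an SE of 0.57 and did not pass (limma adjusted p = 0.0613), but with the replicate block for the sample name shared by both segments it did, at the same fold change (limma adjusted p = 0.0301). Without WT distal library 3 Ace was at -2.31 (limma adjusted p = 0.0023). The remaining log2 fold changes were 0.51 for Anpep, 0.36 for Enpep, 0.09 for Dpp4, -0.03 for Mep1b and -0.22 for Slc15a1.

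Of all genes, 24.1% were called between the WT segments, 11.9% higher and 12.2% lower in distal libraries, against 1 higher and 2 lower of the 9. Groups did not overlap for 38% of all genes, 19.2% higher and 18.8% lower, and for Mep1a, Mme and Tmprss15. The median log2 fold change of the 9 genes was -0.03, beside 0.04 over all genes. Markers of other cells moved with the segment too: 6 of 6 B cell genes were higher in WT distal libraries (summed scaled count 5662 to 16835, against 456 to 2767 in WT proximal), and 4 of 7 T cell and intraepithelial lymphocyte genes were lower (1607 to 3380 against 8731 to 22874). Their part in the members' values was not tested.

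Within cKO mice Mep1a, Mme and Tmprss15 were called between segments, in the directions seen in WT. Mep1a was 8.85-fold higher in distal libraries, at 3.14 with an SE of 0.38 (limma adjusted p = 8.95e-05). Mme was 2.99-fold lower (log2 fold change -1.58, SE 0.43, limma adjusted p = 0.0327). Tmprss15 was lower by 9.14 on the log2 scale (SE 0.73, limma adjusted p = 2.54e-06). Enpep, at 1.13 with an SE of 0.42, did not pass (limma adjusted p = 0.109) but did with the replicate block for the sample name (limma adjusted p = 0.0372). Slc15a1 at 1.05, Dpp4 at 0.94, Mep1b at 0.94, Anpep at 0.48 and Ace at -0.17 did not pass. The call of Mme was lost, with values of -1.46 to -1.66, when any 1 of cKO proximal libraries 1, 2 and 3 or cKO distal libraries 2 and 3 was left out (limma adjusted p = 0.0697 to 0.104). Without both cKO libraries numbered 1, Mep1a at 3.06 and Tmprss15 at -9.23 passed (limma adjusted p = 0.0026 and 0.00018), while Mme at -1.71 did not (limma adjusted p = 0.118). With the mitochondrial share as covariate, Mme at -1.39 was not called (limma adjusted p = 0.0530), and Dpp4 at 1.19 and Mep1b at 1.13 were (limma adjusted p = 0.0124 and 0.0460), which made 3 higher and 1 lower. Over all genes 767 were higher and 991 lower in that setting.

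Between the cKO segments 10.5% of all genes were called, 4.16% higher and 6.36% lower in distal libraries, against 1 higher and 2 lower of the 9. Libraries did not overlap for 7 of the 9 genes (Enpep, Dpp4, Mep1a, Mep1b and Slc15a1 higher, Mme and Tmprss15 lower), beside 30.1% of all genes, 13.9% higher and 16.2% lower. The median log2 fold change was 0.94 for the 9 genes and -0.02 for all genes. Of the marker lists, 6 of 7 T cell and intraepithelial lymphocyte genes were lower in cKO distal libraries (summed scaled count 1581 to 3347, against 6564 to 14881 in cKO proximal), as were 4 of 8 enterocyte genes (257576 to 377734 against 411794 to 447387), and 3 of 6 smooth muscle genes were higher (113 to 218 against 38.4 to 48.7). Their part in the members' values was not tested.

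The bases upstream of Tmprss15 and Mep1a, called in opposite directions in this comparison, are shown from the RefSeq windows of GRCm38.p6, which run from 250 bases before to 50 bases after a RefSeq start. Each stretch ends at the base before the most upstream annotated start. Capitals mark matches, on either strand, to a searched motif. The Tmprss15 stretch is chr16:79091098-79091347 (minus strand, 34% GC) and the Mep1a stretch is chr17:43502813-43503023 (minus strand, 39.3% GC).
Tmprss15: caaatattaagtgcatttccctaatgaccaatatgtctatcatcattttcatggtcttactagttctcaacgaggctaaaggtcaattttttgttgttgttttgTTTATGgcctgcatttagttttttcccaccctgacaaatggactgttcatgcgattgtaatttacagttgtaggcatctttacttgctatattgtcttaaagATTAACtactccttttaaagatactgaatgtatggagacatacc
Mep1a: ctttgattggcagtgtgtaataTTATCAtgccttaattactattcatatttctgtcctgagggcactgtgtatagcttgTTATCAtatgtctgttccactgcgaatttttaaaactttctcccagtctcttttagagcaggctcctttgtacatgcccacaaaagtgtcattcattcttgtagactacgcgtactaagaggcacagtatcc
In Tmprss15 the capitals are TTTATG, a CDX motif, 146 bases before the RefSeq start, and a match to GTTAAT, an HNF1 half-site, 44 bases before it. In Mep1a they are matches to TGATAA, a motif of GATA factors, at 228 and 171 bases before the start. Of 32851 windows in the table, TTTATG occurred in 11.8%, GTTAAT in 7.10% and TGATAA in 9.05%. TTTATG was also found 13 bases after the Mep1a start, outside the stretch shown. Such matches describe letters and not binding.

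In the proximal segment, Mep1a was the 1 gene of the 9 that passed the test between genotypes. It was 3.32-fold higher in cKO (log2 fold change 1.73, SE 0.38, limma adjusted p = 0.0149), at 1983 ± 283 against 657 ± 331 scaled counts (SD, n = 3). Anpep at 1.35 (SE 0.55), Ace at 1.31 (SE 0.57), Enpep at 1.06 (SE 0.42) and Mep1b at 0.97 (SE 0.38) did not pass, with limma adjusted p = 0.142, 0.166, 0.132 and 0.134, although their cKO libraries lay above all WT libraries. Mme at 0.27, Slc15a1 at 0.17, Dpp4 at 0.13 and Tmprss15 at -0.28 had overlapping groups, with an SE of 0.36 to 0.73. Of all genes, 8.26% were called, 4.21% higher and 4.05% lower. Groups did not overlap for 5 of the 9 genes, all higher in cKO, beside 33.9% of all genes, 20.6% higher and 13.3% lower. The median log2 fold change was 0.97 for the 9 genes and 0.08 for all genes. The call of Mep1a was lost without WT proximal library 2 (1.26, limma adjusted p = 0.0574) or cKO proximal library 1 (1.62, limma adjusted p = 0.0536), and when the mitochondrial share was added as covariate (1.23, limma adjusted p = 0.207). Anpep passed with DESeq2 (1.23, DESeq2 adjusted p = 0.0061). Without both cKO libraries numbered 1, those with no Y-linked reads, Mep1a was at 1.62 (limma adjusted p = 0.0586). In these libraries 2 of 8 pan-epithelial genes (Krt19 and Elf3) were higher in cKO, and 4 of 6 myeloid genes were lower (summed scaled count 2977 to 4173, against 10101 to 16917 in WT). Their part in these values was not tested.

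In the distal segment 6 of the 9 genes were higher in cKO: Ace, Mep1b, Enpep, Mme, Slc15a1 and Mep1a. Ace was 6.47-fold higher (log2 fold change 2.69, SE 0.57, limma adjusted p = 0.0038), at 36116 ± 15777 against 7004 ± 6742 scaled counts (SD, n = 3). Mep1b was 3.84-fold higher (1.94, SE 0.38, limma adjusted p = 0.0025) and Enpep 3.56-fold (1.83, SE 0.42, limma adjusted p = 0.0061). These genes encode a dipeptidyl carboxypeptidase, an endopeptidase subunit and an aminopeptidase. Mme was 3.53-fold higher (1.82, SE 0.43, limma adjusted p = 0.0078), Slc15a1 2.72-fold (1.44, SE 0.41, limma adjusted p = 0.0196) and Mep1a 2.38-fold (1.25, SE 0.38, limma adjusted p = 0.0267). Anpep, at 1.32 with an SE of 0.55, and Dpp4, at 0.99 with an SE of 0.36, did not pass (limma adjusted p = 0.0944 and 0.0569). Tmprss15, at 0.36 with an SE of 0.73, rested on 0 to 25 reads in WT and 2 to 10 in cKO libraries.

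Of all genes, 25% were called in the distal segment, 13.3% higher and 11.7% lower in cKO, against 6 higher and 0 lower of the 9. Groups did not overlap for Ace, Mep1b, Enpep, Mme and Mep1a, all higher in cKO, beside 34.8% of all genes, 18.9% higher and 15.9% lower. Slc15a1 was called although WT distal library 3 (9046) lay above cKO distal library 2 (8546). The median log2 fold change was 1.44 for the 9 genes and 0.06 for all genes. Without WT distal library 3, the highest of its group, Anpep was at 1.76 and Dpp4 at 1.35 and both passed (limma adjusted p = 0.0193 and 0.0090). Dpp4 also passed without cKO distal library 3 (1.22, limma adjusted p = 0.0292). The calls of Mep1a and Slc15a1 were lost without WT distal library 1, WT distal library 2 or cKO distal library 1, at 1.01 to 1.12 for Mep1a (limma adjusted p = 0.0951 to 0.121) and 1.06 to 1.27 for Slc15a1 (limma adjusted p = 0.0868 to 0.0977). Without both cKO libraries numbered 1, Ace at 2.38, Mep1b at 1.60 and Enpep at 1.53 passed (limma adjusted p = 0.0300, 0.0225 and 0.0474) and Mme at 1.66 did not (limma adjusted p = 0.0554). Without WT distal library 2, which held the 25 reads, Tmprss15 was at 1.59 and passed (limma adjusted p = 0.0086).

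The make-up of the distal libraries differed between genotypes as well. The 6 B cell genes were all lower in cKO distal libraries, with a summed scaled count of 118 to 397 against 5662 to 16835 in WT. Of 8 pan-epithelial genes, 5 were higher (Epcam, Cdh1, Krt19, Cdh17 and Elf3), with a summed scaled count of 166668 to 257890 against 89958 to 160190. Of 8 enterocyte genes, 3 were higher (Apob, Slc2a2 and Sis), with sums of 257576 to 377734 against 112457 to 243941. Of 6 myeloid genes, 3 were lower, with sums of 3627 to 5457 against 5550 to 22878. When values were scaled to the pan-epithelial genes instead, 4 of the 9 passed: Ace at 1.83, Mep1b at 1.07, Enpep at 0.97 and Mme at 0.96 (limma adjusted p = 0.0020, 0.0026, 0.0134 and 0.0249). Under that scaling the median of all genes shifted from 0.06 to -0.76, and of the genes called, 353 were higher and 6679 lower, in place of 2279 higher and 2018 lower. Slc15a1 at 0.58, Anpep at 0.45, Mep1a at 0.38 and Dpp4 at 0.12 did not pass, and Tmprss15 was at -0.35. With the mitochondrial share of each library as a covariate, 0 of the 9 passed in limma, with Ace at 2.06, Mep1b at 1.32 and Enpep at 1.31 (limma adjusted p = 0.103, 0.0771 and 0.134). Calls over all genes fell from 4297 to 1356 in that setting. The share was 22.3 to 37.7% in WT distal and 9.95 to 27.7% in cKO distal libraries, so the covariate partly follows genotype. How far library make-up accounts for the distal values was not tested.

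**Figure D3:**
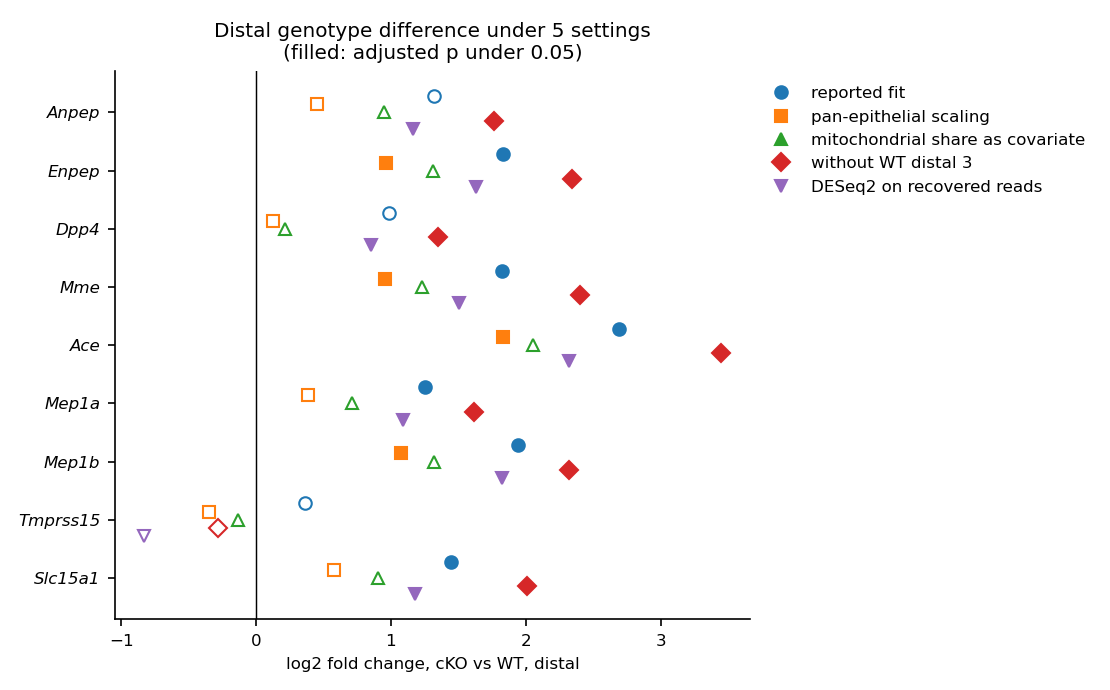
Distal log2 fold change, cKO against WT, of each gene under 5 settings, with filled markers where the adjusted p was under 0.05. Ace, Mep1b, Enpep and Mme are filled in all settings except the one with the mitochondrial share as a covariate, and 8 of the 9 genes lie above 0 in all 5.

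The upstream stretches of Ace and Enpep, both among the 3 largest distal differences, are shown from the same RefSeq windows. The Ace stretch is chr11:105967698-105967944 (plus strand, 67.2% GC) and the Enpep stretch is chr3:129332750-129332999 (minus strand, 52.4% GC), beside a median GC content of 52.7% over all windows.
Ace: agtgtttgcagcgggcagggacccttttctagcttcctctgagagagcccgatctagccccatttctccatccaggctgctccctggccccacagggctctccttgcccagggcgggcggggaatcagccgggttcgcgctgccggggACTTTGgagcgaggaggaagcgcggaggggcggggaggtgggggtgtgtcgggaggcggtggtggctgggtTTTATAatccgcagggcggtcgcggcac
Enpep: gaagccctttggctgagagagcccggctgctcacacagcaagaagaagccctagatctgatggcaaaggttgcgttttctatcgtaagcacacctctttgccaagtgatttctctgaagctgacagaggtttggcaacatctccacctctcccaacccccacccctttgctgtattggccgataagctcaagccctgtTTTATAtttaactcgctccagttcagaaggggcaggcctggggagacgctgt
Capitals mark matches on either strand. In Ace they match CAAAGT, an HNF4 core motif, 102 bases before the RefSeq start, and TATAAA, the TATA box letters, 31 bases before it. In Enpep they match TATAAA 52 bases before the start. These matches all lie on the strand opposite to the gene. Another TATAAA match in Enpep, 1 base before the start, runs past the stretch shown. TATAAA occurred in 13.6% and CAAAGT in 14.4% of all windows. Of the 9 genes, 8 had a window in the RefSeq table, 11 windows in all, and CAAAGT was found in windows of Ace, Mep1a, Mme and Slc15a1. The other motifs searched were AGATAA (another motif of GATA factors, in a Dpp4 window and in 11.2% of all), GGCGCC (a SMAD GC element, in Mme windows and in 11.9% of all), CAAAGTCCA (in 0 member windows and 0.475% of all) and the full HNF1 palindrome (in 0 member windows and 0.00913% of all).

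**Figure D4:**
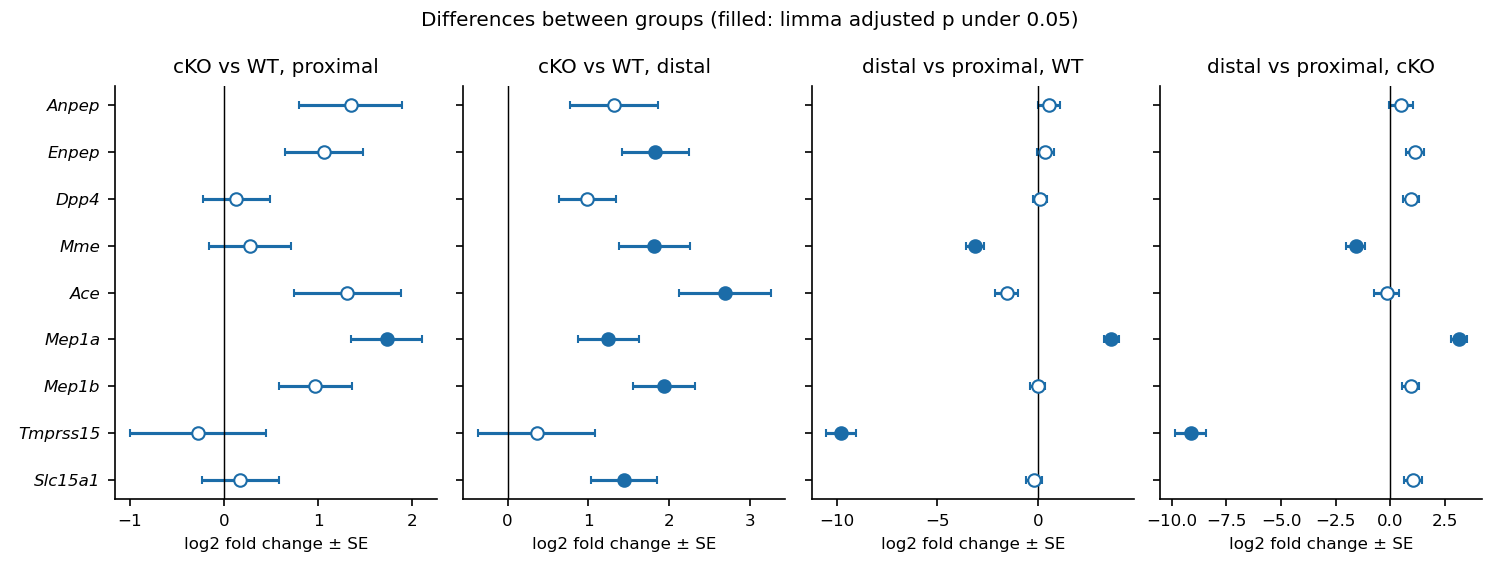
Log2 fold change ± SE of the 9 genes in the 4 comparisons, with filled points for limma adjusted p under 0.05 and a separate horizontal scale in each panel. Mep1a is filled in all 4 panels, and 6 genes are filled in the distal genotype panel against 1 in the proximal.

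Whether the genotype difference depended on the segment was tested with the interaction term, in which 0 of the 9 genes passed with limma, edgeR or DESeq2. At an unadjusted p under 0.05 there were 2 with limma: Mme, whose cKO to WT difference was larger in the distal segment by 1.55 on the log2 scale (SE 0.61, limma adjusted p = 0.286), and Slc15a1, larger by 1.27 (SE 0.58, limma adjusted p = 0.366). The other values were 1.38 for Ace, 0.97 for Mep1b, 0.86 for Dpp4, 0.77 for Enpep, 0.64 for Tmprss15, -0.03 for Anpep and -0.48 for Mep1a, with an SE of 0.50 to 1.03. So 6 calls in one segment and 1 in the other do not show that the genotype difference varies along the intestine. Over all genes 0.576% were called, 0.175% with a positive and 0.402% with a negative term. The median was 0.86 for the 9 genes and -0.0028 for all genes. Without WT distal library 3, Mme at 2.13 and Slc15a1 at 1.83 passed (limma adjusted p = 0.0404 and 0.0471). The replicate block raised the genes called from 99 to 460 and the members called stayed at 0.

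Ratios of levels per kb within a library do not depend on the size factor. The ratio of Mep1a to Mep1b, the paired subunits of meprin, was 0.0507, 0.0317 and 0.0568 in WT proximal, 0.600, 0.551 and 0.557 in WT distal, 0.0849, 0.0699 and 0.0748 in cKO proximal, and 0.291, 0.359 and 0.421 in cKO distal libraries. The 4 groups did not overlap: relative to WT, cKO libraries were higher in the proximal and lower in the distal segment. Ace relative to Anpep was 0.0495, 0.0584 and 0.102 in WT distal and 0.182, 0.149 and 0.190 in cKO distal libraries, apart from each other, and 0.202 to 0.359 and 0.241 to 0.331 in the overlapping proximal groups. Mme relative to Anpep was 0.0914 to 0.143 in WT proximal and 0.0544 to 0.0596 in cKO proximal libraries, which did not overlap, and 0.00629 to 0.0118 and 0.0114 to 0.0161 in the overlapping distal groups. Enpep relative to Anpep was 0.161 to 0.193 in WT distal and 0.224 to 0.273 in cKO distal libraries, apart from each other. With 3 libraries against 3, a two-sided exact permutation test cannot give a p below 0.1, and each of these separations had p = 0.1 (adjusted p = 0.14 over the 28 ratio comparisons made). None passes a threshold of 0.05, and the ratios are descriptions.

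**Figure D5:**
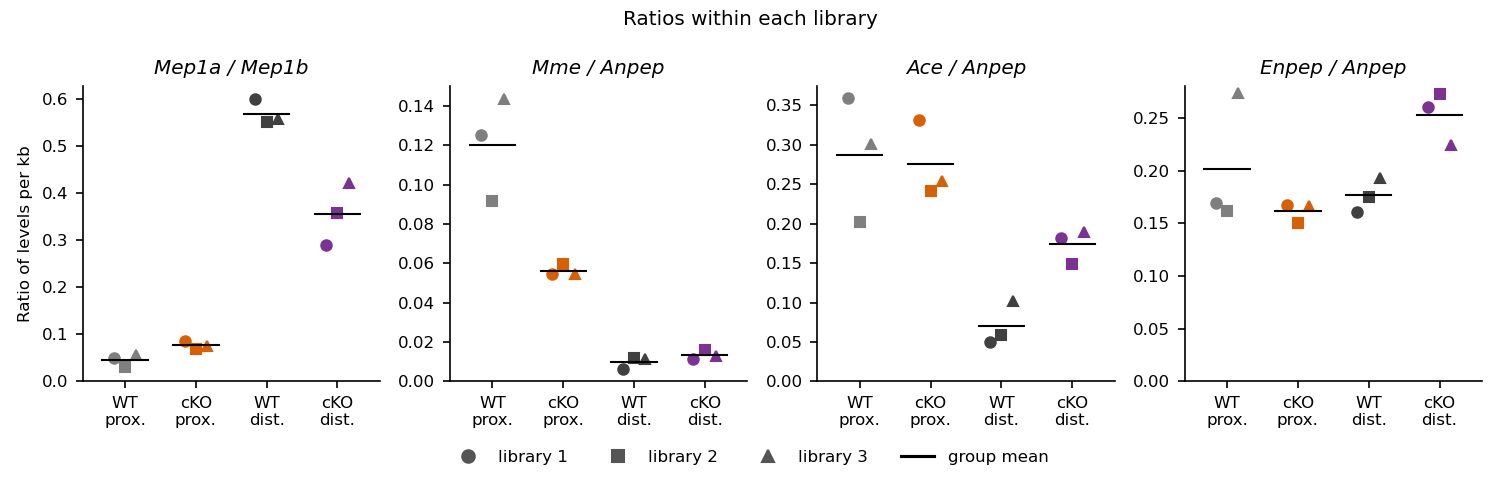
Ratio of levels per kb within each library for 4 pairs of genes, 1 point per library with a bar at the group mean, each panel with its own axis starting at 0. The Mep1a to Mep1b ratio separates all 4 groups, from 0.0317 to 0.0568 in WT proximal up to 0.551 to 0.600 in WT distal libraries.

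Other genes of protein digestion were examined in lists. Among all genes, 4.21% were called higher in cKO in the proximal and 13.3% in the distal segment. Of 6 other apical peptidase genes, 0 were called in the proximal genotype comparison. In the distal segment 3 were higher in cKO, among them Dpep1 at 1.30 and Xpnpep2, 2.43-fold higher (limma adjusted p = 0.0307 and 0.0351), while Cpm, a carboxypeptidase, was lower at -1.89 (limma adjusted p = 0.00084). Between segments, Naaladl1 and Xpnpep2 were higher in distal libraries of WT (2.99 and 2.68) and of cKO (4.89 and 3.14), and Ggt1 was lower in WT (-1.63). Intracellular peptidases, which split absorbed peptides, formed a list of 11. Of these, 3 were higher in cKO distal libraries (Npepps at 0.69, Dpp7 at 0.86 and Dpp3 at 0.63) and 0 lower. In the proximal segment 1 was higher and 0 lower. Genotype groups did not overlap for 7 of the 11 in the proximal and 2 in the distal segment, beside 33.9% and 34.8% of all genes. Of 6 surface serine proteases and inhibitors, 5 were higher in cKO distal libraries, among them Tmprss2 at 1.91 and Tmprss4 at 1.29. In cKO proximal libraries 3 were higher (Tmprss4 at 0.92, Tmprss2 at 0.90 and Prss8 at 1.19).

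On the transport side, Slc15a1 can be set beside 7 genes for other peptide transporters and for the proton supply. Of these, 0 were higher in cKO, and Slc15a3, a lysosomal peptide transporter, was lower in the proximal (-1.47) and distal (-2.07) segments. Lower calls made up 4.05% of all genes in the proximal and 11.7% in the distal genotype comparison. Slc9a3, the apical sodium-proton exchanger that sustains the proton gradient, was lower in WT distal than WT proximal libraries (-1.40). Of 11 enterocyte amino acid transporter genes, 9 were higher in cKO distal libraries, including Slc3a2 at 1.61, Slc7a8 at 1.59, Slc3a1 at 1.58 and Slc16a10 at 1.48, beside 13.3% of all genes. In the proximal segment 0 of the 11 were called, and 0 of the 11 passed the interaction with limma. The median of that list was 1.41 in the distal segment, beside 0.06 for all genes. Between segments, Slc1a1, the glutamate transporter, was 12.4-fold higher in distal than proximal libraries of WT. It was called higher in distal than proximal libraries of cKO too. This ran against the direction of the 4 listed genes that were lower in WT distal than WT proximal libraries (Slc6a20a, Slc7a8, Slc16a10 and Slc3a2). Over all genes 12.2% were called lower between the WT segments.

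Of 9 transcription factors known from enterocytes, 1 was called higher in cKO in the proximal and 4 in the distal segment, beside 4.21% and 13.3% of all genes. Cdx1 was higher in cKO in the proximal (log2 fold change 0.98, limma adjusted p = 0.0033) and distal (0.94, limma adjusted p = 0.0011) segments. Ppara at 1.51 and Gata4 at 0.82 were higher in cKO distal libraries as well. Between segments 1 of the 9 was higher and 3 lower in WT distal libraries, and 2 were higher and 2 lower in cKO distal libraries. Over all genes 11.9% were called higher and 12.2% lower between WT segments, and 4.16% and 6.36% between cKO segments. Gata4 and Gata6 were lower in distal than proximal libraries, Gata4 by log2 fold changes of -2.33 (WT) and -1.83 (cKO), Gata6 by -1.21 (WT) and -1.03 (cKO).

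Over the 12 libraries the closest pair among the 9 genes was Mep1b and Enpep (Pearson r = 0.96 of log2 values), followed by Enpep and Anpep (r = 0.95), and the most opposed pair was Tmprss15 and Mep1a (r = -0.88). Among 10680 genes with a mean value of at least 50, the patterns most like Tmprss15 were those of Otop3 (r = 0.997), Onecut2 (r = 0.993) and Akp3 (r = 0.992), and those most like Mme were Ugt2a3 (r = 0.988), Ugt2b34 (r = 0.988) and Atp7b (r = 0.984). Mep1a was closest to Scd2 (r = 0.983), Xpnpep2 (r = 0.977) and Mindy1 (r = 0.976), and Mep1b to Malrd1 (r = 0.987), Cldn3 (r = 0.982) and Cdh1 (r = 0.979). Anpep and Enpep shared H13 (r = 0.978 and 0.971) among their nearest genes, which also included Mapk13 for Anpep (r = 0.974) and Malrd1 for Enpep (r = 0.970). Ace was closest to Pcsk5 (r = 0.984), Slc5a4b and Tmem161b, Slc15a1 to Itgb4 (r = 0.954), Lemd2 and Cyp4f14, and Dpp4 to Atp8b1 (r = 0.948), Sptbn1 and Cldn7. These coefficients describe libraries that share 4 groups and their size factors, and the 12 points are not independent.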

How the data were processed

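Per the labels' protocols, Trizol was used for RNA and NuGEN's Ovation kit (RNA-Seq System V2) for the libraries. Reads were aligned to mm10 with STAR and analysed with DESeq2 1.28.1, per the submitters' processing notes. Counter, annotation and gene filter are not given in the sources used here. The sample values the authors deposited are a signal: all 206100 were whole multiples of a step of their column within 0.001 steps, and were read as (count + 1) divided by a size factor. The deposited log2 fold change, the deposited standard error and Wald statistic (a score) and the deposited p-value belong to a single contrast of the authors and were not used. 0 sample columns were left unmatched.

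Since the values are scaled and not counts, limma 3.58.1 (R 4.3.3, empirical Bayes with a trend) was run on log2(value + 1) with 4 group means over 12 libraries, with Benjamini-Hochberg adjustment over 17175 genes and a threshold of 0.05. No gene was lost to the filter, which asked for a value of 1 in 3 libraries. The pseudocount understates fold changes of genes with few reads. Called means adjusted p under 0.05. edgeR 4.0.16 and DESeq2 1.42.0 on recovered reads were alternatives, with 100% of values whole. Only the limma fit of the distal genotype comparison was tested on simulated data, with libraries drawn independently, and its outcome is not reported here. Levels per kb use exon unions from GENCODE M21, in which 17168 gene identifiers were found. Promoter windows are from RefSeq.

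Named were all 9 genes, up to 4 called genes with the smallest p per list described (with any called against most of its list), and the 3 nearest genes per member. Some genes that this rule names are not reported here. The members, lists and motifs were chosen with earlier results of these data known. Sample names in the labels recur in both segments, and deviations of same-numbered libraries correlated between segments at 0.17 to 0.31 in WT and 0.16 to 0.32 in cKO, so the sample name was used as the replicate block there. Between genotypes the correlation was -0.15 to 0.05, so the numbers do not pair those samples. No 2 libraries of a group agreed within sampling noise.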

Additional observations from a re-analysis of the deposited data

How the results depend on the processing

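Values are limma log2 fold changes unless named. The alternatives were another pseudocount, no or a stricter filter, 2 other scalings, edgeR, DESeq2, only the groups compared, a mitochondrial covariate, the replicate block, and libraries left out.

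Of the 9 genes, those called in the proximal genotype comparison numbered 2 with DESeq2, 4 with only the groups compared, 0 with the mitochondrial covariate and 0 without both cKO libraries numbered 1. In the distal comparison they numbered 0 with the covariate, 3 without both cKO libraries numbered 1, 7 with edgeR and 8 with DESeq2. Between cKO segments they numbered 7 with DESeq2 and 5 with only the groups compared. Leaving out 1 library gave 0 to 1 proximal, 4 to 8 distal, 3 to 4 between WT segments, 2 to 3 between cKO segments and 0 to 2 in the interaction.

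Over all genes, the proximal count of 1418 became 2304 with DESeq2, 292 with the covariate and 766 without both cKO libraries numbered 1. With only the groups compared it was 1659. The distal count of 4297 became 7032 with pan-epithelial scaling, 1356 with the covariate and 2160 without both cKO libraries numbered 1. It was 4207 with edgeR and 4903 with DESeq2. The count of 1806 between cKO segments became 2762 with DESeq2, 1751 with only the groups compared and 862 without both cKO libraries numbered 1. The interaction count of 99 became 180 with a pseudocount of 8, 59 with edgeR, 594 with DESeq2, 460 with the replicate block and 2 without both cKO libraries numbered 1. Leaving out 1 library gave 580 to 1360 proximal, 2466 to 4954 distal, 2741 to 3924 between WT segments, 1031 to 1545 between cKO segments and 7 to 266 in the interaction. With TMM scaling the calls split 557 higher to 814 lower in the proximal comparison (723 to 695 as reported) and 39 to 51 in the interaction (30 to 69). With pan-epithelial scaling the splits were 193 to 829 proximal, 333 to 1994 between cKO segments (714 to 1092 as reported) and 16 to 100 in the interaction, with medians of all genes at -0.26, -0.37 and -0.48, and 0.17 between WT segments.

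Directions turned only for values that had not passed. In the proximal comparison Dpp4 was at -0.22, Mme at -0.082 and Slc15a1 at -0.18 with pan-epithelial scaling, and at -0.59, -0.28 and -0.33 with the covariate. Dpp4 was at -0.068 with edgeR and -0.055 with DESeq2, and Slc15a1 at -0.0029 with edgeR. Leaving out 1 library gave -0.16 to 0.49, -0.020 to 0.51 and -0.087 to 0.48 for Dpp4, Mme and Slc15a1. Tmprss15 in the distal comparison was at -0.062 with a pseudocount of 8, -0.35 with pan-epithelial scaling, -0.85 with edgeR, -0.83 with DESeq2, -0.13 with the covariate and -0.28 to 1.59 with 1 library left out. Between WT segments Mep1b was at 0.10 with pan-epithelial scaling, 0.018 with edgeR, 0.036 with DESeq2 and 0.21 with the covariate. With 1 library left out the WT segment ranges were -0.41 to 0.24 for Mep1b, -0.15 to 0.69 for Enpep, -0.27 to 0.45 for Dpp4 and -0.78 to 0.16 for Slc15a1. Between cKO segments Ace was at 0.030 with the covariate and -0.49 to 0.19 with 1 library left out. In the interaction Tmprss15 was at -0.44 with edgeR, -0.43 with DESeq2 and -0.0056 to 1.87 with 1 library left out, and Anpep at -0.30 to 0.42. The cause was not tested.

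The replicate block added Ace between WT segments and Enpep between cKO segments to the calls and changed no other call of the 9 genes. In the genotype comparisons, where the number is only shared, the block left 1 proximal and 6 distal calls. Depth limited Tmprss15 in distal libraries, at 0 to 25 reads.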
